A study of Mus musculus with 6 samples.

Results

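The genes described here are 35 neighbours of Phf13 on distal mouse chromosome 4. They were taken for their place on the chromosome, with earlier results of these data known. Every probe set whose platform symbol is exactly 1 of the 35 names was taken, which gave 84 probe sets of 34 genes, out of 18193 genes with a single symbol on the array. Eno1, the glycolytic enolase, had no probe set under its name and is not analysed here. Affymetrix expression arrays were hybridised with total RNA of whole testis from mice aged 5 weeks, with 3 arrays for wild type and 3 for Phf13 knockout. The labels do not state how the knockout allele was made, the strain, or whether the 3 arrays of a genotype stand for 3 mice. The p-values therefore reflect only how far these samples scatter, which may be technical. The number of arrays limits the precision. Values are the authors' log2 values, in which a difference of 1 is a 2-fold change.

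Phf13 encodes a PHD finger protein that binds histone H3 trimethylated at lysine 4, a mark of active promoters. The stretch of chromosome around it is dense in genes of unrelated function. It holds transcription factors, a clock gene, ubiquitin ligase adaptors, metabolic enzymes, a death receptor and a motor protein. Position in a shared stretch is what these genes have in common.

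In gene order, counted in genes that the array measures, the members ran from Casz1, 32 genes on the centromeric side of Phf13, to Nphp4, 17 genes on the telomeric side. There were 21 members on the centromeric side and 13 on the telomeric side. The stretch between the outermost members held 50 measured genes, of which 15 were neither members nor Phf13. Gene order came from RefSeq assembly GRCm38.p6.

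Promoter windows of 250 bases before to 50 bases after a transcription start were matched in the RefSeq table (GRCm38.p6) for 27 of the 34 members, with 44 windows in all. Shown are those of Phf13, Tas1r1, Camta1 and Casz1, to give the sequence at the RefSeq starts of these genes. Each of these genes has a probe set that was called (a limma p under 0.05 after Benjamini-Hochberg adjustment over all probe sets). Zbtb48, a member that was also called, had no matched window. Which starts the testis transcripts use was not tested. Pairs of letters in capitals mark CG dinucleotides. Each window is written 5′ to 3′ on the gene's own strand. They lie at chr4:151996130-151996429 on the minus strand (Phf13), chr4:152038441-152038740 on the minus strand (Tas1r1), chr4:151861719-151862018 on the minus strand (Camta1), and at chr4:148804142-148804441 and chr4:148889097-148889396 on the plus strand (the upstream and the downstream start of Casz1).
Phf13: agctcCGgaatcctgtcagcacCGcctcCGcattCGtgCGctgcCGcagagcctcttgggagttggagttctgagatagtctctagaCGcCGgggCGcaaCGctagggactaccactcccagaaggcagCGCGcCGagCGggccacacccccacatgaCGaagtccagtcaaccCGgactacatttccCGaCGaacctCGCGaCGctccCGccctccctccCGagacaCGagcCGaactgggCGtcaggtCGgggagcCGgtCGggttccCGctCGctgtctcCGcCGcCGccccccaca
Tas1r1: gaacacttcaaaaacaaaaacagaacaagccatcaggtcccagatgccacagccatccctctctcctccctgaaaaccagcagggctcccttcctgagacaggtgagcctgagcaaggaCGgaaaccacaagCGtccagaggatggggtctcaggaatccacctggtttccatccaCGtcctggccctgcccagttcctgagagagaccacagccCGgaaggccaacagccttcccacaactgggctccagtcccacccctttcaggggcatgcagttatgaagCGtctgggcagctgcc
Camta1: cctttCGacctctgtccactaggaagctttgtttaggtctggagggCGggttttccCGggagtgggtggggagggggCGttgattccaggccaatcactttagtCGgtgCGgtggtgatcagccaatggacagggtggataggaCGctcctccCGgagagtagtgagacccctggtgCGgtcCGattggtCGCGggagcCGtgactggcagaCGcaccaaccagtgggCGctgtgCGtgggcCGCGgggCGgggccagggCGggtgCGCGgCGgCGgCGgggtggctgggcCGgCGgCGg
Casz1, upstream start: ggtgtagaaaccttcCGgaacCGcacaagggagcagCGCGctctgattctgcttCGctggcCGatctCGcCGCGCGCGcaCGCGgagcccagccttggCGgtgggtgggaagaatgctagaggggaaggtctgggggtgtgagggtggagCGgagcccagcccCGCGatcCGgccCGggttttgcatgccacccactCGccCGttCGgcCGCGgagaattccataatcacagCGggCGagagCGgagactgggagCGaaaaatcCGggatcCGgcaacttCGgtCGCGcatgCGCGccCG
Casz1, downstream start: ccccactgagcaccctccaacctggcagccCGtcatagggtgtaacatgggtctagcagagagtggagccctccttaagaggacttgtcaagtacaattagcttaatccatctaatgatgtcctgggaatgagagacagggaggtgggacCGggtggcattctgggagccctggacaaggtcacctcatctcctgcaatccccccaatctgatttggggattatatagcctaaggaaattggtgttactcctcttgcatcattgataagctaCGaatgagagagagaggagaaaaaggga

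The CG count separated these windows. The Phf13 window held 34 CG dinucleotides, that of Camta1 28, the upstream start of Casz1 36, the downstream start of Casz1 3 and the window of Tas1r1 5. Over all 32851 windows of this length the median was 7, and over the 44 member windows it was 23. The Sp family motif GGGCGG, searched on both strands, was present in 29 member windows, or 65.9%, against 35.7% of all windows. The TATAAA motif, searched likewise, was present in 4 member windows, or 9.09%, against 13.6% of all.

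The targeted gene went with its label. The single Phf13 probe set read 9.55, 9.47 and 9.56 on the wild-type arrays and 6.71, 6.60 and 6.55 on the knockout arrays. The groups did not overlap, and the level fell by 2.91 in log2 units (SE 0.09, limma adjusted p = 7.7e-06). The labels do not say whether these probes lie in the deleted part of the gene. In whole tissue, fewer cells of a type and less RNA per cell cannot be told apart, here and below.

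A few neighbours of Phf13 differed strongly and most did not. Of the 84 member probe sets, 2 passed as lower (Zbtb48 and a probe set of Casz1) and 1 as higher (a probe set of Camta1) at a limma adjusted p under 0.05. That is 3.57% of the members (2.38% lower and 1.19% higher), against 0.0999% of all 45037 probe sets (0.0444% lower and 0.0555% higher). At an unadjusted p under 0.05, 12 member probe sets were lower and 6 higher, or 14.3% and 7.14%, and 21.4% in all, against 15.1% of all probe sets (8.31% lower and 6.81% higher). Groups did not overlap in 21 member probe sets, 13 lower and 8 higher, or 25% of the members, against 19.3% over the array (10.7% lower and 8.62% higher). Members went both ways, with 38 probe sets above 0 and 45 below. The median difference was -0.03 over the members and 0.00 over all probe sets, and the median size was 0.14 against 0.12. The SE of a member probe set ran from 0.08 to 0.32, with a median of 0.11.

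**Figure D1:**
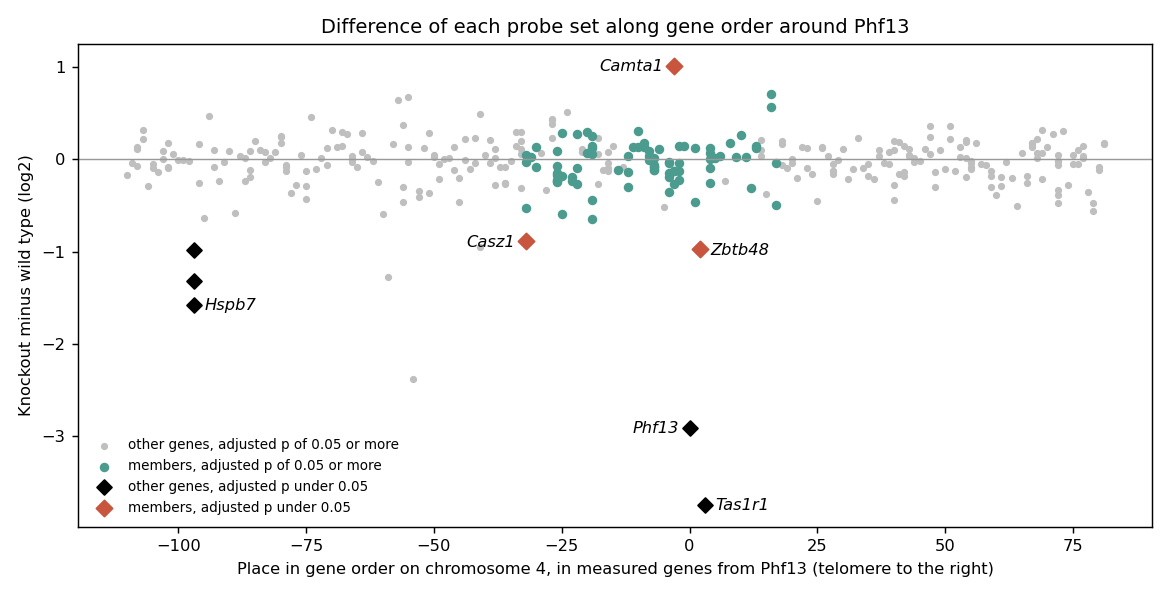
Log2 difference between knockout and wild type (y axis) for each probe set of chromosome 4 genes in the stretch around Phf13, set in gene order (x axis, 0 at Phf13, telomere to the right). Diamonds passed a limma adjusted p under 0.05. Phf13 (-2.91), Tas1r1 (-3.74) and Zbtb48 (-0.97) lie within 3 genes of each other, and most member points lie near 0.

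Transcription factors held all 3 called probe sets. This group has 8 members with 21 probe sets, of which 2 were called lower and 1 higher; its median difference was -0.08. Zbtb48, a zinc finger protein that binds telomeric repeats, is the second gene on the telomeric side of Phf13. Its only probe set read 7.45, 7.17 and 7.21 in wild type and 6.31, 6.25 and 6.35 in knockout. All 3 knockout arrays lay below all 3 wild-type arrays, with a gap larger than the spread inside either group. The transcript level fell by 0.97 (SE 0.10, limma adjusted p = 0.0153), a 1.96-fold lower level, which rests on 1 probe set.

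Camta1, a calmodulin-binding transcription activator, is the third gene on the centromeric side. It gave readings that did not go together. The probe set 1457956_at read 6.92, 6.91 and 6.91 in wild type and 7.72, 8.08 and 7.97 in knockout, and rose by 1.01 (SE 0.11, limma adjusted p = 0.0169). The wild-type values were nearly identical, and every knockout array lay above all of them. The probe set 1433971_at, in contrast, read 3.89, 3.92 and 4.03 in wild type and 3.49, 3.78 and 3.77 in knockout. That is a difference of -0.27 in the opposite direction (unadjusted p = 0.0359, limma adjusted p = 0.301), and of -0.17 without knockout 1. The means of 1433971_at, 3.95 in wild type and 3.68 in knockout, lay near the lower quartile of the arrays (3.66 to 3.75). At that level a difference can hardly be read. The remaining Camta1 probe sets differed by -0.13 and -0.12 with overlapping groups. Their mean levels were 4.67 and 4.47, against 7.42 for 1457956_at. A change of the Camta1 transcript as a whole was therefore not shown, and the labels do not place the probe sets within the gene.

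Casz1, a zinc finger transcription factor, is the member farthest from Phf13. Its probe sets were also split. The probe set 1459054_at read 5.50, 5.27 and 5.48 in wild type and 4.64, 4.46 and 4.48 in knockout, and fell by 0.89 (SE 0.10, limma adjusted p = 0.0237). The probe set 1453349_at read 5.37, 5.66 and 5.73 against 5.18, 4.94 and 5.05, a difference of -0.53 (unadjusted p = 0.00196, limma adjusted p = 0.183), again with no overlap. The remaining probe sets, 1442010_at and 1446975_at, differed by -0.03 and 0.05 with overlapping groups. On both of these, knockout 1 was the highest of the 6 arrays. Casz1 has both a CG-rich and a CG-poor start in the windows printed above, and which start each probe set reads was not tested.

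These calls depended on which arrays were kept. When any of the arrays wild type 1, wild type 2, knockout 2 and knockout 3 was left out, each of the 3 probe sets missed the threshold, with limma adjusted p = 0.0611, 0.0790, 0.108 and 0.0976 for Zbtb48, 0.113, 0.137, 0.0899 and 0.126 for Camta1, and 0.133, 0.0790, 0.143 and 0.156 for Casz1, in that order of arrays. When knockout 1 was left out all 3 passed (0.0435, 0.0103 and 0.0376), and likewise without wild type 3 (0.00702, 0.00866 and 0.0114), where 998 probe sets of the whole array were called lower against 20 with all 6 arrays. With runs of consecutive title codes as a block the limma adjusted p was 0.125, 0.156 and 0.229, and with the 2 sets of arrays described below as a block Casz1 missed the threshold at 0.0563; the differences kept their direction and lay between -1.03 and -0.89, 0.93 and 1.11, and -0.96 and -0.85.

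**Figure D2:**
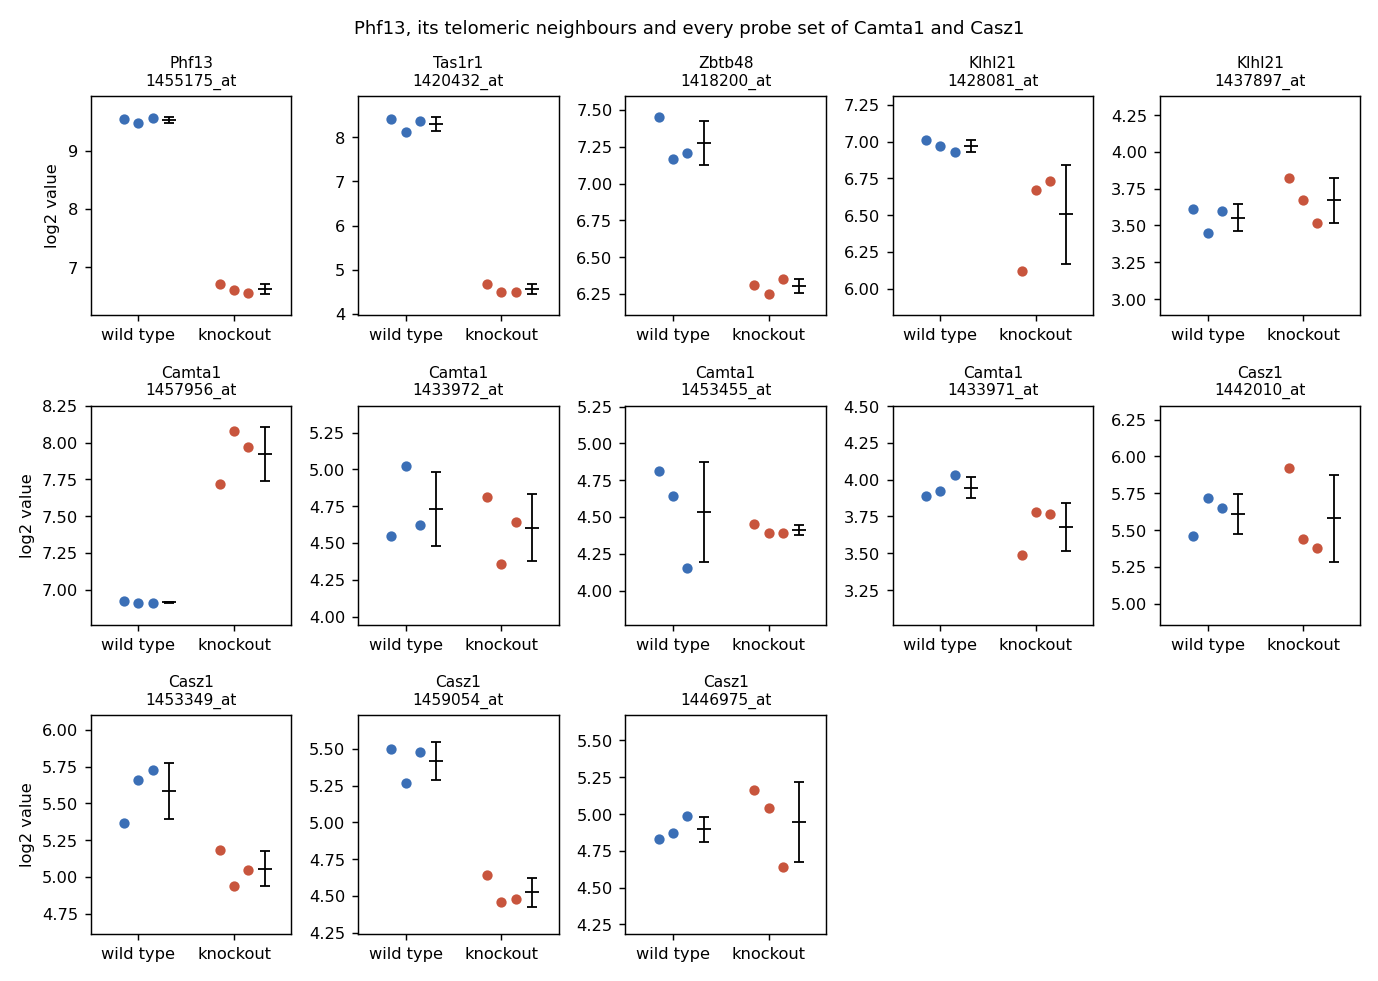
Log2 value (y axis, a scale of its own in each panel) on each of the 3 wild-type arrays (blue) and 3 knockout arrays (red), with the mean and SD of each group as a black bar. The wild-type values of Camta1 1457956_at are 6.92, 6.91 and 6.91, below all knockout values, while the other Camta1 panels do not show a rise.

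The other transcription regulators gave no call. Rere, an atrophin family corepressor, had 1 of 3 probe sets at an unadjusted p under 0.05: 1439159_at read 4.81, 4.74 and 4.34 in wild type and 4.27, 4.37 and 4.35 in knockout. The groups overlapped, because wild type 3 lay among the knockout arrays. Per3, a period gene of the circadian clock, had 6 probe sets with differences from -0.12 to 0.01, none at that p. Thap3, a THAP domain gene and the direct centromeric neighbour of Phf13, differed by 0.14. The repressor genes Hes2 and Hes3 differed by 0.18 and 0.02. Neither gene directly beside Phf13, Thap3 or Klhl21, had a called probe set.

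The telomeric neighbours were followed gene by gene. Klhl21, an adaptor of a cullin ubiquitin ligase that acts in mitosis, comes directly after Phf13. Its probe set 1428081_at read 7.01, 6.97 and 6.93 in wild type and 6.12, 6.67 and 6.73 in knockout. The groups did not overlap, but knockout 1 stood well below the other knockout arrays, and the difference of -0.46 did not pass (unadjusted p = 0.0171, limma adjusted p = 0.255) and was -0.27 without knockout 1. Its second probe set read 3.61, 3.45 and 3.60 against 3.82, 3.67 and 3.52, with a difference of 0.12 and overlapping groups, and both group means lay under the lower quartile of the arrays. Next comes Zbtb48, and then Tas1r1, a subunit of the umami taste receptor and no member. Tas1r1 read 8.41, 8.12 and 8.36 in wild type and 4.68, 4.49 and 4.50 in knockout, and fell by 3.74 (SE 0.11, limma adjusted p = 7.7e-06). The difference was larger in size than that of the targeted gene itself; the array has 1 probe set for each. The gene after Tas1r1, Nol9, a polynucleotide kinase of ribosomal RNA processing, had 5 probe sets with differences from -0.25 to 0.12 and none at an unadjusted p under 0.05. On this side, then, the called falls were those of Zbtb48 and Tas1r1, with no call at Klhl21 before them or at Nol9 after them.

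Beyond Nol9 the telomeric members stayed near 0 for several genes. Plekhg5, a guanine nucleotide exchange factor, differed by 0.01. The death receptor gene Tnfrsf25 differed by 0.03 and Acot7, an acyl-CoA thioesterase, by 0.02. The orphan receptor gene Gpr153 differed by 0.26 (unadjusted p = 0.0646). Icmt, the methyltransferase of prenylated proteins, read 9.20, 8.91 and 8.83 in wild type and 8.85, 8.61 and 8.54 in knockout. Its groups overlapped, and the difference was -0.31 (unadjusted p = 0.0391, limma adjusted p = 0.306), or -0.20 without wild type 1. Both probe sets of the RING finger gene Rnf207 differed by little, 0.12 and 0.14.

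The outermost telomeric members, Kcnab2 and Nphp4, are neighbours that differed in opposite directions. Kcnab2 encodes a beta subunit of voltage-gated potassium channels. Its probe set 1416956_at read 5.95, 5.72 and 5.83 in wild type and 6.71, 6.48 and 6.42 in knockout. The second, 1425885_a_at, read 7.21, 6.91 and 7.17 against 7.61, 7.59 and 7.78. All knockout arrays lay above all wild-type arrays on both, with differences of 0.70 (SE 0.11, unadjusted p = 0.00017) and 0.56 (SE 0.11, unadjusted p = 0.000801). Neither passed over all probe sets (limma adjusted p = 0.0862 and 0.149). Over the alternative fits 1416956_at passed in 3 of 15, with a limma adjusted p from 0.0152 to 0.370, and 1425885_a_at in 1 of 15, from 0.0228 to 0.529. Array weights gave the lowest p for both, in a fit that called 1532 probe sets of the whole array lower and 1654 higher. Kcnab2 was the only member with more than 1 probe set in which every probe set lay in the same direction at an unadjusted p under 0.05.

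Nphp4, a nephrocystin of the base of the cilium, differed the other way on its brighter probe set. 1434024_at read 7.31, 7.08 and 7.25 in wild type and 6.60, 6.88 and 6.68 in knockout, with no overlap. The difference was -0.49 (SE 0.11, unadjusted p = 0.00168, limma adjusted p = 0.174). The second Nphp4 probe set differed by -0.04 with overlapping groups. Among the starts that RefSeq gives these genes, 1 of Kcnab2, on the minus strand, and 1 of Nphp4, on the plus strand, face away from each other. Their windows overlap by 288 bases. The window of Kcnab2 at chr4:152477500-152477799 is printed because both transcripts can start in it, with CG in capitals as before.
Kcnab2 and Nphp4, minus strand: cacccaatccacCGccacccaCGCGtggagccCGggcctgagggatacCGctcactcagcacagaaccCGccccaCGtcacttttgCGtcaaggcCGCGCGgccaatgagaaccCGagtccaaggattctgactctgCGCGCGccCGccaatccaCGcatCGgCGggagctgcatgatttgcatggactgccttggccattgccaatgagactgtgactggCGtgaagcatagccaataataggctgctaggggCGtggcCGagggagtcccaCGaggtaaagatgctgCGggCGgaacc

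This shared window held 25 CG dinucleotides and 5 copies of the CCAAT motif, counted on both strands. CCAAT was present in 19 member windows, or 43.2%, against 37.4% of all windows. Kcnab2 has other starts, with 3 and 5 CG dinucleotides in their windows, so the array values need not come from the shared start. Overlapping windows on opposite strands were found for 7 of the 27 matched members, or 25.9%, against 11.9% of all genes with a window. The other such member pair was Lzic, a catenin-interacting gene, and Nmnat1, an enzyme of nuclear NAD synthesis. The probe sets of Nmnat1 differed by -0.19 and -0.24 and those of Lzic by -0.09, -0.26 and 0.28, none at an unadjusted p under 0.05. Per3 shares 287 bases of window with Gm38529, a gene that is no member and lies 5 genes from Phf13. Gm38529 read 3.71, 4.20 and 3.72 in wild type and 3.37, 3.37 and 3.34 in knockout, a difference of -0.52 that did not pass (unadjusted p = 0.00499, limma adjusted p = 0.208).

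**Figure D3:**
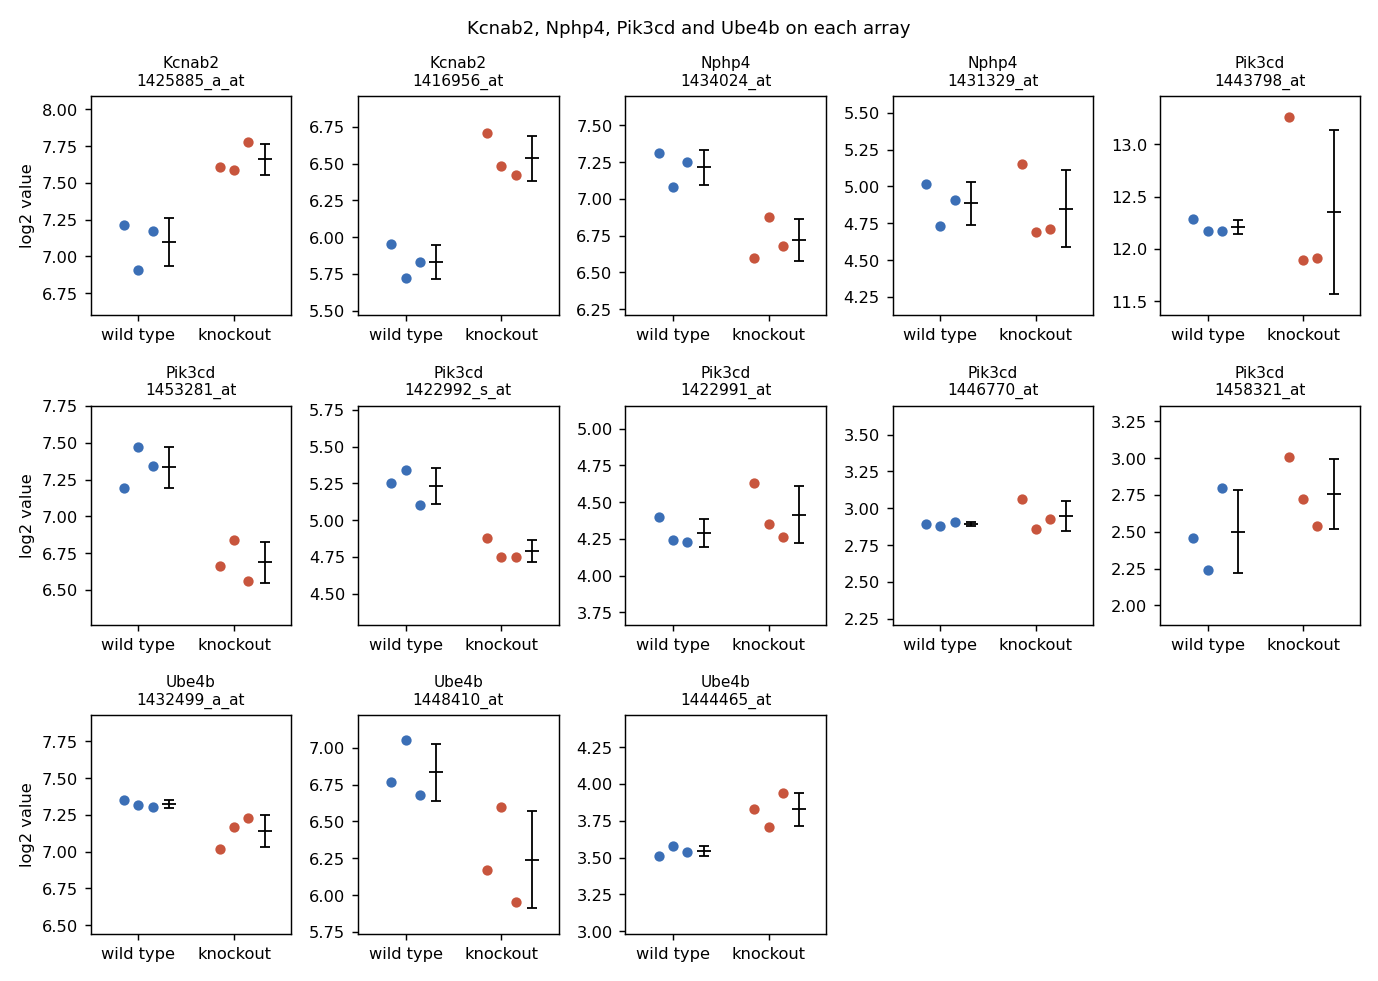
Log2 value (y axis, a scale of its own in each panel) on the wild-type arrays (blue) and the knockout arrays (red), with the mean and SD of each group as a black bar, for every probe set of Kcnab2, Nphp4, Pik3cd and Ube4b. Both Kcnab2 panels have higher knockout values, whereas Pik3cd 1443798_at has a single high array, knockout 1 at 13.26.

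Receptor, channel and signalling genes, Kcnab2 among them, had 18 probe sets of 9 members. At an unadjusted p under 0.05, 3 of these were lower and 3 higher, and 0 passed the limma adjusted threshold. Pik3cd gave 2 of the lower and Kcnab2 2 of the higher. Over the array, 8.31% of probe sets were lower and 6.81% higher at that p. On the centromeric side Pik3cd had probe sets on both sides of 0. It encodes the delta catalytic subunit of phosphoinositide kinase, known from leukocytes, and has 6 probe sets. 1453281_at read 7.19, 7.47 and 7.34 in wild type and 6.66, 6.84 and 6.56 in knockout, a difference of -0.65 (unadjusted p = 0.000351, limma adjusted p = 0.125). 1422992_s_at read 5.25, 5.34 and 5.10 against 4.88, 4.75 and 4.75, a difference of -0.44 (unadjusted p = 0.00181, limma adjusted p = 0.178). Groups did not overlap on either. The suffix of 1422992_s_at marks a type whose probes can bind other transcripts, as do the suffixes of 7 member probe sets in all. The other 4 probe sets differed by 0.06 to 0.26 with overlapping groups. On 1446770_at (0.06) and 1458321_at (0.26), the ends of that range, both group means lay under the lower quartile of the arrays. 1422991_at differed by 0.12. The last, 1443798_at, read 12.29, 12.17 and 12.17 in wild type and 13.26, 11.89 and 11.91 in knockout. There knockout 1 alone lay above wild type, while knockout 2 and knockout 3 lay below it. Over the alternative fits the limma adjusted p ran from 0.0238 to 0.529 for 1453281_at and from 0.0215 to 0.529 for 1422992_s_at. Each passed in 2 fits, those with array weights and without wild type 3, which also raised the calls over the whole array.

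The remaining genes of this group differed little. Errfi1, a feedback inhibitor of the epidermal growth factor receptor, read 7.55, 7.69 and 7.65 in wild type and 7.74, 8.20 and 7.88 in knockout on 1416129_at. The groups did not overlap, the difference was 0.31 (unadjusted p = 0.0381, limma adjusted p = 0.304) and 0.18 without knockout 2, and the other probe set differed by 0.14. Tnfrsf9, a costimulatory receptor of T cells, had 3 probe sets between -0.01 and 0.09, and the urotensin peptide gene Uts2 differed by 0.11. Markers of leukocytes were measured beside these genes: 14 of 14 had a positive difference, 0 passed in limma, 2 had an unadjusted p under 0.05, and the mean of the list ran from 5.53 to 5.76 in wild type and from 5.54 to 6.16 in knockout. Knockout 1, at 5.54, lay with the wild-type arrays, and the list differed by -0.03 inside the first set of arrays described below and by 0.32 inside the second. Their part in the values of Pik3cd and Tnfrsf9 was not tested.

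The ubiquitin ligase gene Ube4b, 25 genes from Phf13, had probe sets on both sides of 0. 1448410_at read 6.77, 7.05 and 6.68 in wild type and 6.17, 6.60 and 5.95 in knockout, a difference of -0.59 (unadjusted p = 0.00805, limma adjusted p = 0.220). 1444465_at read 3.51, 3.58 and 3.54 against 3.83, 3.71 and 3.94, a difference of 0.28 (unadjusted p = 0.0146, limma adjusted p = 0.246). The third differed by -0.18. Groups did not overlap on any of the 3, and they still disagreed in direction. The one that rose, 1444465_at, lay near the lower quartile of the arrays (3.66 to 3.75). Its means were 3.54 in wild type and 3.83 in knockout, a level at which a difference can hardly be read. The brighter probe sets were both lower in knockout.

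Mitochondrial, peroxisomal and redox genes had 7 probe sets and a median difference of 0.03. Dnajc11, a mitochondrial J protein, is the second gene on the centromeric side of Phf13. Its probe set 1433880_at read 7.66, 7.46 and 7.52 in wild type and 7.28, 7.36 and 7.32 in knockout. That was a difference of -0.23 with no overlap (unadjusted p = 0.0352, limma adjusted p = 0.299), and its other three probe sets differed by -0.13, 0.14 and -0.04. Both probe sets of Park7, a redox-sensitive protein also called DJ-1, had positive differences, 0.13 and 0.17. Pex14, which docks import receptors at the peroxisome, differed by 0.03.

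Genes of metabolism and sugar transport, 5 probe sets of 4 measured genes, had no probe set at an unadjusted p under 0.05. Slc2a5, the fructose transporter found in sperm, read 10.73, 10.68 and 10.50 in wild type and 10.73, 10.48 and 10.36 in knockout. These values overlapped. The sugar transporter gene Slc45a1 differed by 0.13. In the nucleus, Dffa, the inhibitor of the nuclease that fragments DNA in apoptosis, differed by -0.09 and 0.13.

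Vesicle, motor, adhesion and cilium genes had 16 probe sets, with a median difference of -0.15, the lowest median of the role groups. Vamp3, a SNARE of endosomes, had all 5 probe sets below 0, from -0.36 to -0.03, and none at an unadjusted p under 0.05. Of these, 3 are of the type whose probes can bind other transcripts. The kinesin gene Kif1b had 6 of 7 probe sets below 0, from -0.25 to 0.09, also with none at that p. Clstn1, a calsyntenin that links cargo to kinesin, read 6.91, 6.54 and 6.71 in wild type and 6.94, 6.99 and 7.13 in knockout on 1421861_at. The groups did not overlap but nearly met, the difference was 0.30 (unadjusted p = 0.0300, limma adjusted p = 0.289), and the other probe set differed by 0.07.

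**Figure D4:**
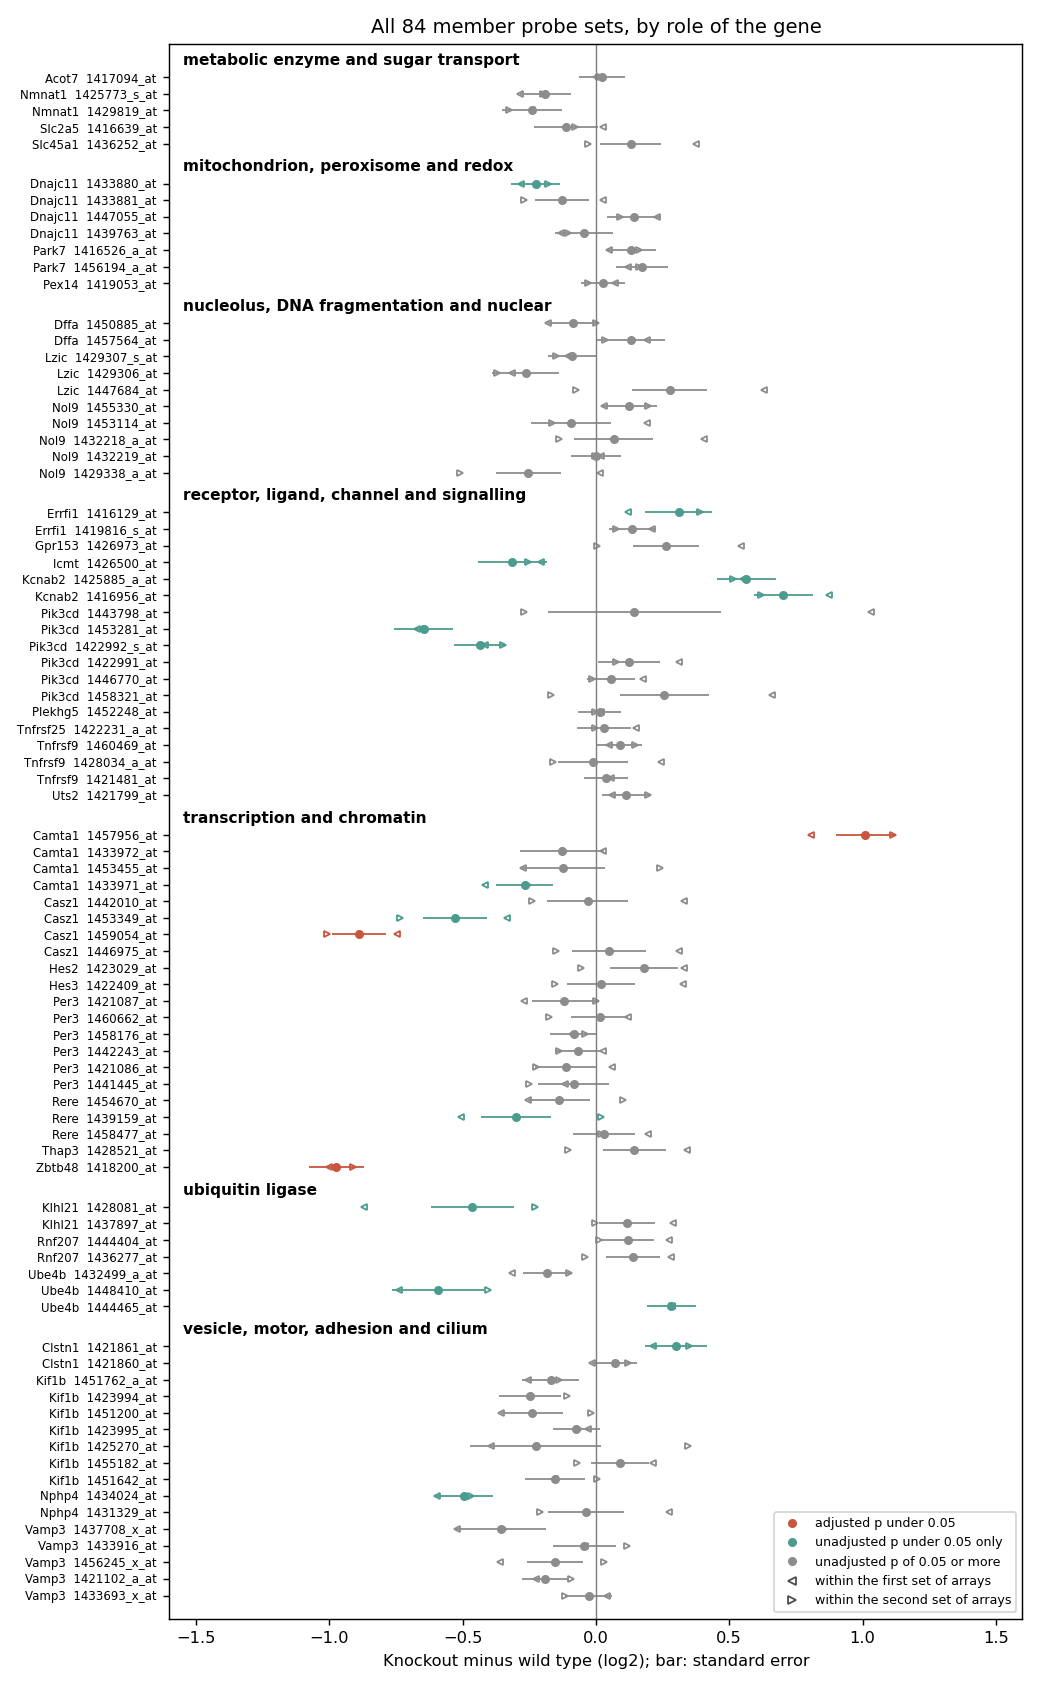
Log2 difference between knockout and wild type (x axis) for all 84 member probe sets, grouped by the role of the gene (y axis), with the SE as a bar and the difference inside each set of arrays as open triangles. Red points passed the adjusted threshold, green points an unadjusted p under 0.05 only. Both Kcnab2 points lie above 0.5, and the points of Camta1, Pik3cd and Ube4b fall on both sides of 0.

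Agreement between the probe sets of a gene was counted next. Of the 34 measured members, 13 had 1 probe set and 21 had more. A change of the transcript required a call and all probe sets in the same direction at an unadjusted p under 0.05, and it was met by 1 member, Zbtb48, which has 1 probe set. Camta1 and Casz1 had a call without agreement. Another 9 members had some probe set at an unadjusted p under 0.05 and no call, not counting Kcnab2, and 21 had none. In these 21 the differences ran from -0.36 to 0.28. Signs were split between the probe sets of 13 members. Both group means lay under the lower quartile of the arrays in 12 of the 84 probe sets, where a difference can hardly be read. Without these 12 the signs were split in 10 members. No counts by gene over the whole array are given beside those of this paragraph, so they do not set the members apart. Of all probe sets, 15.1% had an unadjusted p under 0.05.

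Calls were most frequent in the window next to Phf13, and did not fall off evenly with distance. All genes of chromosome 4 that the array measures entered, members or not, without Phf13. Within 10 genes of Phf13, 3 of 44 probe sets were called, or 6.82%: those of Zbtb48, Tas1r1 and Camta1. From 11 to 25 genes it was 0 of 58, with 15 at an unadjusted p under 0.05. From 26 to 50 genes it was 1 of 100, or 1.0%, and from 51 to 100 genes 3 of 139, or 2.16%, all 3 of them probe sets of the small heat shock protein gene Hspb7. Farther away on the chromosome 2 of 1752 were called, or 0.114%, and on other chromosomes 27 of 32643, or 0.0827%. Those 2 were Lpar1, a lysophosphatidic acid receptor gene, and Slc24a2, an exchanger of sodium and calcium, which rose by 0.87 (limma adjusted p = 0.0169) and 1.12 (limma adjusted p = 0.00893). Chromosome 4 as a whole had 10 of 2094 probe sets called, or 0.478%, Phf13 included.

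At an unadjusted p under 0.05 the share lower in knockout was 13.6% within 10 genes, 17.2% from 11 to 25, 11% from 26 to 50 and 15.8% from 51 to 100. It was 8.22% farther away and 8.71% on other chromosomes. The share higher ran from 4.55% to 9% over the same windows, against 7.48% on other chromosomes. Over probe sets, the median size of the difference within 10 genes was 0.125, close to 0.12 on other chromosomes. By the brightest probe set of each gene, the median size was 0.203 for the 20 genes within 10 of Phf13. On other chromosomes it was 0.123 by gene, and from 26 to 50 genes it was lower, at 0.098. By gene, 35% within 10 genes had an unadjusted p under 0.05, against 17.5% on other chromosomes. No test compared the windows, whose probe sets share arrays and, for a gene with several, a transcript.

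**Figure D5:**
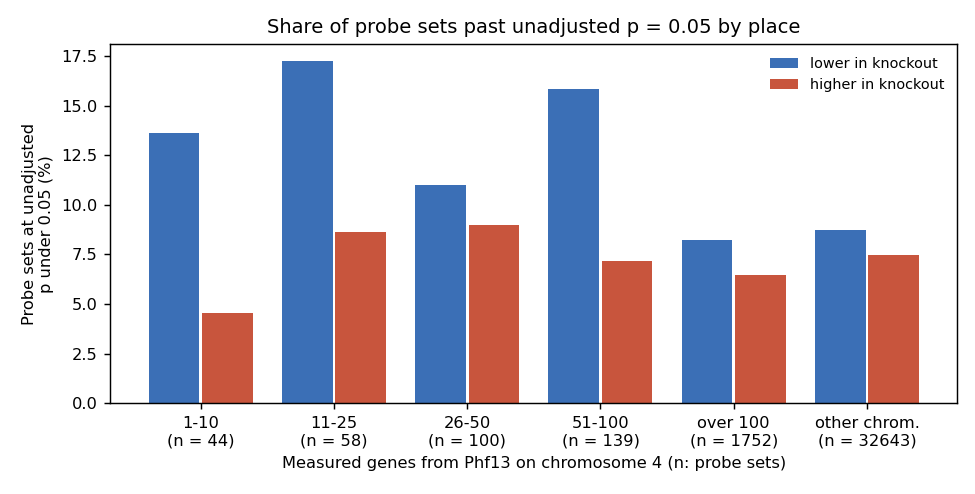
Share of probe sets at an unadjusted p under 0.05 (y axis, percent), lower (blue) and higher (red) in knockout, by distance from Phf13 in measured genes of chromosome 4 (x axis), beside all other chromosomes. The blue bars up to 100 genes lie between 11% and 17.2%, and those farther away and on other chromosomes at 8.22% and 8.71%. Several probe sets of a gene are counted apart here. By the brightest probe set of each gene, the share lower was 25% within 10 genes and 16.7% from 11 to 25. It was 8.0% from 26 to 50 genes and 18.5% from 51 to 100, against 8.71% on other chromosomes.

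The arrays were not uniform. Their 18S ribosomal control probe sets averaged between 12.03 and 12.67 on wild type 1, wild type 2 and knockout 1, and between 9.69 and 10.71 on wild type 3, knockout 2 and knockout 3. Each set holds both genotypes, but the first has a single knockout array and the second a single wild-type array, and the codes in the titles of the second set follow each other without a gap. Inside the first and the second set, Zbtb48 differed by -1.0 and -0.91, Camta1 1457956_at by 0.81 and 1.12, and Casz1 1459054_at by -0.75 and -1.01. Kcnab2 differed by 0.88 and 0.62 on 1416956_at and by 0.55 and 0.52 on the other probe set, Nphp4 1434024_at by -0.60 and -0.47, and Klhl21 1428081_at by -0.87 and -0.23. Rere 1439159_at differed by -0.51 and 0.02. Over all 84 member probe sets the sign was the same in 44, or 52.4%, against 57.2% of all probe sets.

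The labelled tissue was borne out by its markers. The mean of the spermatid markers (12 measured, Prm1 among them) lay between 12.38 and 12.44 in wild type and between 12.39 and 12.42 in knockout. Markers of Sertoli cells, the somatic cells of the tubule, gave no call. All 17 measured had a positive difference, 12 at an unadjusted p under 0.05 and 0 called in limma, and the list's mean ran from 8.38 to 8.47 in wild type and from 8.71 to 8.91 in knockout (a difference of 0.30 in the first array set and 0.41 in the second). Positive differences were also found in 7 of 7 Leydig cell markers, 9 of 10 of myoid cells and stroma, 4 of 4 of adipose tissue, 5 of 7 of endothelium, 6 of 9 of spermatogonia and 4 of 6 of epididymis, and negative ones in 7 of 12 of spermatocytes; 0 of these were called. Inside the first and the second set the Leydig list differed by 0.02 and 0.31, that of myoid cells and stroma by 0.04 and 0.72 and that of adipose tissue by 0.75 and 0.58. The part of any of these lists in the differences of the members was not tested.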

How the data were processed

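Expression was measured on 6 Affymetrix arrays of whole testis, 3 of wild-type and 3 of Phf13 knockout mice. The authors deposited log2 values, 1 for each probe set; per the submitters' processing notes they come from Affymetrix Expression Console 1.4.1. That the scale is log2 follows from the range of the values; summarization, normalization and build are not stated in the labels. Of 45101 probe sets, 64 controls were left out and 45037 were tested with no filter on low values. Symbols were those of the platform annotation (34945 probe sets had 1, 932 several and 9160 none), and 34737 were placed in the RefSeq table of GRCm38.p6 by gene identifier. limma 3.58.1 in R 4.3.3 fitted knockout against wild type (lmFit, eBayes, two-sided), with Benjamini-Hochberg adjustment over all 45037 and a threshold of 0.05. Every adjusted p is from this fit unless an alternative is named. The procedure was tested on simulated data with planted differences, 50 of each size. It recovered 8% of those of 0.5 in log2 units, 74% of those of 1, 98% of those of 2 and 100% of those of 3. A missing call at a size near 0.5 therefore does not show that a level was unchanged. A gene's brightest probe set is that with the highest mean over the 6 arrays. Members with a call are given in full, members with an unadjusted p under 0.05 with their values, and non-members only within 10 genes of Phf13 or with a call on chromosome 4, besides 2 genes chosen after their values were seen. The members, roles and marker lists were chosen with earlier results of these data known. No 2 arrays repeated each other (smallest root mean square difference 0.17).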

Additional observations from a re-analysis of the deposited data

How the results depend on the processing

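The direction of the 18 member probe sets at an unadjusted p under 0.05 was the same in each of the alternative fits that tested them (15 in all, 14 for the dim ones), and quantile normalization and median centring moved the median of all probe sets by 0.00 each. Counts moved more. All probe sets called lower and higher numbered 20 and 25; 6 passed as lower with the replicate block, 4 and 12 with title code runs as a block, 1532 and 1654 with array weights, 44 and 66 with an intensity trend and robust moderation, 42 as lower above the median level, 6 and 15 at an adjusted p under 0.01 and 52 and 48 under 0.10. Leaving out each array gave 4 to 998 lower and 8 to 178 higher, the highest without wild type 3.

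Member probe sets called lower (2) and higher (1) became 0 and 0 with the replicate block, with title code runs as a block and under 0.01, 5 and 3 with array weights, 1 and 2 above the median level, 1 lower with the array set as a block and 2 higher under 0.10; leaving out each array gave 0 to 4 and 0 to 2. The members that counted as a transcript change (1) became 0 with the replicate block, with code runs and under 0.01, 2 with array weights and under 0.10, and 3 above the median level, where fewer probe sets of a gene were tested (0 to 2 without an array). Called genes within 10 of Phf13 by brightest probe set (3) fell to 1, Tas1r1, with the replicate block, with code runs and under 0.01 (1 to 3 without an array). The cause of these shifts was not tested. Phf13 differed by -2.80 inside the first set of arrays and by -2.99 inside the second, and passed in all 15 fits. Same-numbered arrays of the 2 genotypes deviated together with correlations of 0.26, 0.07 and 0.12, so the numbers were not taken as pairs. Wild type 1 correlated best with knockout 1 and wild type 2 with knockout 2, but wild type 3 also correlated best with knockout 2. In the replicate block Zbtb48, Camta1 and Casz1 had limma adjusted p = 0.0518, 0.0526 and 0.0518.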

Other observations

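Outside the members, the brighter probe set of Fbxo44, a substrate adaptor of a ubiquitin ligase that lies 41 genes on the centromeric side of Phf13, differed by -0.95 with a limma adjusted p = 0.0552. Its second probe set differed by 0.49 in the opposite direction (limma adjusted p = 0.245). Zfp979, a zinc finger gene 54 genes on that side, differed by -2.38 with an unadjusted p = 0.00449 and a limma adjusted p = 0.204. Both genes were chosen after their values were seen.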
